A study of Mus musculus with 16 samples.

Results

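The genes described here are those that fold proteins, break them down in the proteasome or start and extend translation. They were chosen by name from 2 deposited tables of mouse liver RNA-seq, as protein-coding genes named Hsp, Dnaj, Pdia, Cct, Fkbp, Sec6, Eif, Eef or Ube2, together with the Psm genes of the proteasome, the signal sequence receptor genes Ssr1 to Ssr4, 5 cyclophilin genes of the Ppi family, and Sel1l, Syvn1, Herpud, Xbp1, Ddit3 and Atf4. This gave 93 genes of the 5205 that either table lists, 30 of 2558 in the table of TSP1F/F mice and 71 of 3399 in that of TSP1ΔPf4 mice, with 8 in both. The reference annotation holds 283 protein-coding genes with such names, and those outside the tables are not analysed here. The tables list genes at an unadjusted diet p-value under 0.05 in the authors' own test, so a difference between the diets chose every gene below and its values for diet are a description.

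Livers came from 16 male C57BL6 mice, 4 in each of 4 groups, fed for 32 weeks on a low-fat (LF) diet or on the AMLN diet, which is rich in fat, fructose and cholesterol and produces steatohepatitis. TSP1F/F mice, named WT in the labels, carry floxed copies of the gene for thrombospondin 1 and no Cre. Their TSP1ΔPf4 littermates, named KO, carry the same floxed copies and Pf4-Cre. This Cre deletes the gene in megakaryocytes and platelets and can also act in some other blood cells. Whether liver cells keep the gene was not checked here. The mice are listed at an age of 8 weeks, which the sources used here do not tie to the start of feeding. Every sample was whole liver, and in such bulk samples fewer cells of a type and less RNA per cell cannot be told apart.

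A protein made for secretion enters the endoplasmic reticulum (ER) through the Sec61 channel, which the TRAP complex assists, and folds there with the help of the chaperones BiP and GRP94, disulfide isomerases and prolyl isomerases. Chaperones of the heat shock families and the CCT chaperonin do similar work in the cytosol. Proteins that fail or have served are tagged with ubiquitin by E2 and E3 enzymes and cut up by the proteasome, a 20S barrel capped by the 19S regulator or by the PA28 activator. Hepatocytes secrete most plasma proteins, and the unfolded protein response, which raises ER chaperones when folding lags, is widely studied in fatty liver disease.

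Promoters were read from RefSeq (build GRCm38.p6, the same assembly as mm10) for 75 of the 93 genes, as 250 bases before and 50 after the annotated start. The ER stress element, searched on both strands as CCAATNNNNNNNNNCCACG, was found in 39 of 32851 promoters (0.119%) and in 2 of these 75, those of Hspa5 and Hsp90b1. A pair of heat shock units, searched as GAANNTTC, which reads the same on both strands, was found in 7.86% of all promoters and in 8 of the 75 (10.7%), with Hspb1 and Hspa1a among them. The 250 bases before the start of these 4 genes are printed because they are the stress-responsive genes to which the results return. Capitals mark the element searched. The annotated RefSeq start lies 120 bases inside the Hspa5 gene of the files and 65 inside Hsp90b1, and equals it for Hspb1 and Hspa1a.
Hspa5, chr2:34771840-34772089, forward strand: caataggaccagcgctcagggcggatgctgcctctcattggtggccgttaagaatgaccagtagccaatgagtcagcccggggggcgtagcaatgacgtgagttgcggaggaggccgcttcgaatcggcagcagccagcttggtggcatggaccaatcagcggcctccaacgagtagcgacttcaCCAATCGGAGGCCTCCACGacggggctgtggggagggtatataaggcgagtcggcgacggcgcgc
Hsp90b1, chr10:86705445-86705694, reverse strand: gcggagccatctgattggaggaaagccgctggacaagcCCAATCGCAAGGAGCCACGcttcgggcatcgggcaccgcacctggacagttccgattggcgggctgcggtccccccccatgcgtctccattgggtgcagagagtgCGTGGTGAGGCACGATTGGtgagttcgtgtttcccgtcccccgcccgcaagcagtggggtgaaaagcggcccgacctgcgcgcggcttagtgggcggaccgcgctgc
Hspb1, chr5:135887669-135887918, forward strand: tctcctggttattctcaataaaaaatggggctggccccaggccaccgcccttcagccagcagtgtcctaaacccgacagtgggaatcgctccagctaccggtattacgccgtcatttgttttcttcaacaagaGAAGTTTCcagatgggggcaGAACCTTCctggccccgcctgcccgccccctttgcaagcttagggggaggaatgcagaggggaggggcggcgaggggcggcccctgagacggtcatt
Hspa1a, chr17:34972157-34972406, reverse strand: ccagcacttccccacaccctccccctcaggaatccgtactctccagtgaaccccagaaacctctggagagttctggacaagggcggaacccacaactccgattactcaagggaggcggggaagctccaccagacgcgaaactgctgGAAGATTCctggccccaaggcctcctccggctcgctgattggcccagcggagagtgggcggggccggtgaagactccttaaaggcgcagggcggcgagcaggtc
Hsp90b1 held the ER stress element at 2 places, once on each strand, and Hspa5 held it once. Shorter pieces are common, since CCAAT alone is in 37.4% of all promoters and in 29 of the 75 (38.7%), and CCACG, the other end of the element, is in 32.8% and in 42 of the 75 (56%), both strands searched and matches within the element included. These matches are letters in a window and say nothing of binding.

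Values are CPM, counts scaled to a common library size, computed with library totals of 17127965 to 39753019 reads that were rebuilt from the counts, gene lengths and FPKM. In both genotypes the library of LF replicate 3, a different mouse in each, stood apart. Listed genes took 65.25% of the total of TSP1ΔPf4 LF replicate 3 and 45.8 to 51.0% of the other 3 LF libraries, and 36.1% of TSP1F/F LF replicate 3 against 19.9 to 24.3%. LF replicate 3 was the highest LF value of 22 of the 24 genes described here that were lower on the AMLN diet in TSP1F/F (91.7%, against 65% of all genes listed as lower), and of 51 of 59 in TSP1ΔPf4 (86.4%, against 78%). Leaving it out turned the sign of none of the genes tested, which the selection by diet favours. It moved the log2 fold change by over 1.5 times for 9 of the 28 genes tested in TSP1F/F and 26 of the 70 in TSP1ΔPf4. Such a value is given beside those of their log2 fold changes printed below that it moves this far. It was not computed for the partner genes and markers listed at the end. The targeted gene, Thbs1, is listed for TSP1F/F only, with 6 to 34 counts on LF and 64 to 528 on AMLN, and so does not check the genotype labels.

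**Figure D1:**
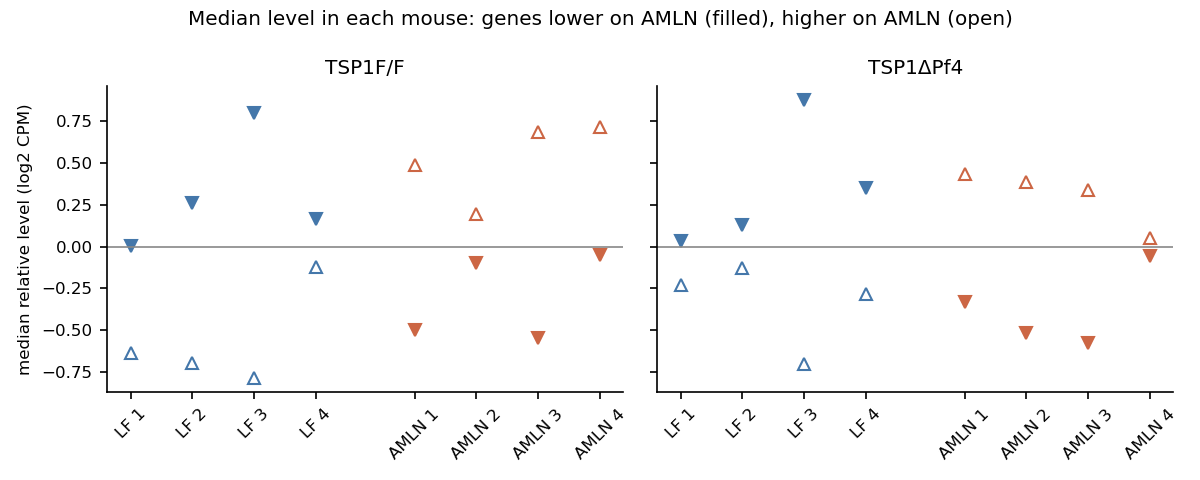
Median relative level of the folding, proteasome and translation genes in each mouse (log2 CPM relative to the gene's mean over the 8 mice of its genotype; x axis, diet and replicate). Filled symbols are genes lower on AMLN (24 in TSP1F/F, 59 in TSP1ΔPf4) and open symbols genes higher on AMLN (6 and 12). LF replicate 3 has the highest filled symbol of each genotype, at 0.80 and 0.88.

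On the AMLN diet most of these genes were lower in both genotypes. In TSP1F/F livers 24 of 30 had a lower mean CPM on AMLN than on LF (80%), against 32.5% of all genes listed there. In TSP1ΔPf4 livers it was 59 of 71 (83.1%), against 55.8%. The groups did not overlap for 7 of 30 lower genes in TSP1F/F (23.3%, against 13.3% of all listed genes) and for 24 of 71 in TSP1ΔPf4 (33.8%, against 27.3%). They did not overlap for 3 higher genes in TSP1F/F, where 33.9% of all listed genes were of that kind, and for 4 in TSP1ΔPf4, against 21.4%. Without LF replicate 3 the numbers with a lower mean on AMLN were again 24 and 59, which the selection by diet favours. The median log2 fold change of those tested was −0.61 in TSP1F/F and −0.65 in TSP1ΔPf4, and −0.42 and −0.47 without LF replicate 3. Over all genes tested it was 1.15 and −0.54.

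No single gene of the 93 passed the adjusted threshold for diet. By edgeR (quasi-likelihood F test, Benjamini-Hochberg adjusted) 0 of 28 tested in TSP1F/F and 0 of 70 in TSP1ΔPf4 were called, where 1.91% and 0.874% of all tested genes were. At an unadjusted p under 0.05, which the selection favours, 15 of 28 were lower (27.1% of all) and 4 higher (53%) in TSP1F/F, and 48 of 70 were lower (51.9%) and 11 higher (33.8%) in TSP1ΔPf4. The Wald test of DESeq2 with its own size factors called 10 of 28 in TSP1F/F, all lower (31% of all tested were called), and 16 of 70 in TSP1ΔPf4, 6 lower and 10 higher (36.9%). That scaling was computed on selected genes and moved the median of all genes from 1.15 to 0.78 in TSP1F/F and from −0.54 to −0.20 in TSP1ΔPf4. The median of the genes described here moved with it, from −0.61 to −0.96 in TSP1F/F and from −0.65 to −0.29 in TSP1ΔPf4, where TMM scaling gave −0.26. Under DESeq2 the log2 fold change moved by over 1.5 times for 16 of 28 and 58 of 70 genes, so in TSP1ΔPf4 the size of a fall depends on the scaling. There 0 genes turned in sign in either genotype, which the selection by diet favours. With the authors' own size factors the medians of all genes tested were 1.15 and −0.52. Those of the genes described here were −0.61 and −0.62.

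**Figure D2:**
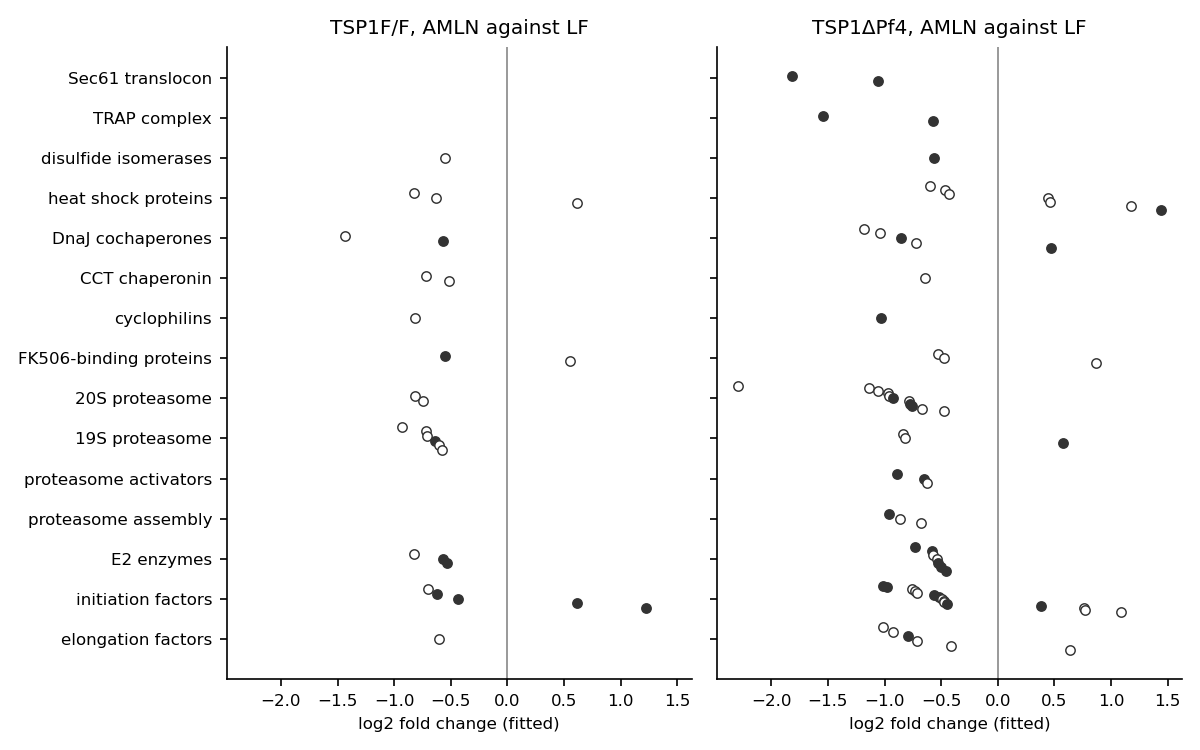
Fitted log2 fold change of AMLN against LF (x axis) for the 28 genes tested in TSP1F/F (left) and the 70 in TSP1ΔPf4 (right), by family (y axis). Each point is a gene, filled where the 4 LF and 4 AMLN mice do not overlap. Of the points, 24 of 28 and 58 of 70 lie below 0.

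In the ER, all 4 listed genes of the channel and its helper complex were lower on AMLN in TSP1ΔPf4, and all 4 without overlap between the diets. Of all genes listed there, 55.8% were lower and 27.3% were lower without overlap. Sec61g (ENSMUSG00000078974, chr11:16500530-16508484, reverse strand) encodes the small gamma subunit of the channel. It had 28.3, 26.6, 104 and 31.7 CPM in the LF-fed and 13.2, 10.6, 11.7 and 18.5 CPM in the AMLN-fed mice. Its log2 fold change was −1.82 (standard error 0.43), and −1.10 without LF replicate 3. Sec61b (ENSMUSG00000053317, chr4:47474658-47483242, forward strand), the beta subunit, had 40.9, 35.6, 82.9 and 39.6 CPM in the LF-fed and 27.2, 18.2, 18.1 and 32.1 CPM in the AMLN-fed mice. The log2 fold change of Sec61b was −1.06 (standard error 0.31), and −0.70 without LF replicate 3. Every LF-fed mouse exceeded every AMLN-fed mouse in both genes, but replicate 3 set the LF mean. Ssr4 (ENSMUSG00000002014, chrX:73787028-73790830, forward strand), the delta subunit of TRAP, had 118, 124, 353 and 155 CPM in the LF-fed and 63.98, 49.3, 50.7 and 93.3 CPM in the AMLN-fed mice, with a log2 fold change of −1.54 (standard error 0.37), or −1.04 without LF replicate 3. Ssr2, the beta subunit, had a log2 fold change of −0.57 (standard error 0.19) and 67.98 ± 5.32 against 45.9 ± 8.26 CPM (SD, n = 4). Its LF values, 63.3 to 74.0 CPM, were not set by 1 mouse. These 4 genes are not listed for TSP1F/F.

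The chaperones that fold what enters the ER were lower too. Hspa5 (ENSMUSG00000026864, chr2:34771970-34777547, forward strand) encodes BiP, the Hsp70 of the ER, and its promoter holds the ER stress element. In TSP1F/F livers it had 478, 706, 1020.0 and 548 CPM in the LF-fed and 393, 349, 487 and 545 CPM in the AMLN-fed mice. In TSP1ΔPf4 livers Hspa5 had 614, 547, 771 and 523 CPM in the LF-fed and 575, 302, 355 and 387 CPM in the AMLN-fed mice. The diets overlapped in both genotypes, by 1 mouse or more, and the log2 fold changes were −0.63 (standard error 0.30) and −0.60 (standard error 0.24). Without LF replicate 3 they were −0.38 and −0.47, the first moved by over 1.5 times, and with DESeq2 they were −1.01 and −0.26. Pdia3, a disulfide isomerase that acts on glycoproteins, was 503 ± 156 against 343 ± 62.7 CPM in TSP1F/F and 422 ± 63.2 against 286 ± 58.2 CPM in TSP1ΔPf4 (SD, n = 4 per group), with no overlap in the second only. Its log2 fold change in TSP1F/F was −0.55, and −0.32 without LF replicate 3. Hsp90b1 (ENSMUSG00000020048, chr10:86690209-86705509, reverse strand) encodes GRP94 and also holds the ER stress element. It is listed for TSP1ΔPf4, with 379, 414, 373 and 375 CPM in the LF-fed and 378, 240.3, 235 and 262 CPM in the AMLN-fed mice. The 4 LF values lay close together, and AMLN replicate 1 lay among them. Its log2 fold change was −0.47 (standard error 0.21), and −0.15 with DESeq2. Dnajb9, a cochaperone of BiP, had 92.8, 69.03, 129.6 and 56.98 CPM in the LF-fed and 47.7, 50.99, 53.02 and 59.3 CPM in the AMLN-fed mice in TSP1ΔPf4, which overlapped (log2 fold change −0.72 (standard error 0.26), or −0.47 without LF replicate 3 and −0.36 with DESeq2). Of the ER-associated degradation genes (Sel1l, Syvn1 and the Herpud genes) and the stress transcription factors (Xbp1, Ddit3 and Atf4), 0 of 10 annotated genes are listed in either table. Of 23 core stress genes on a list, 7 are listed, Hspa5, Hspb1, Hspa1a, Hsp90b1, Dnajb9, Psme1 and Psme2.

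**Figure D3:**
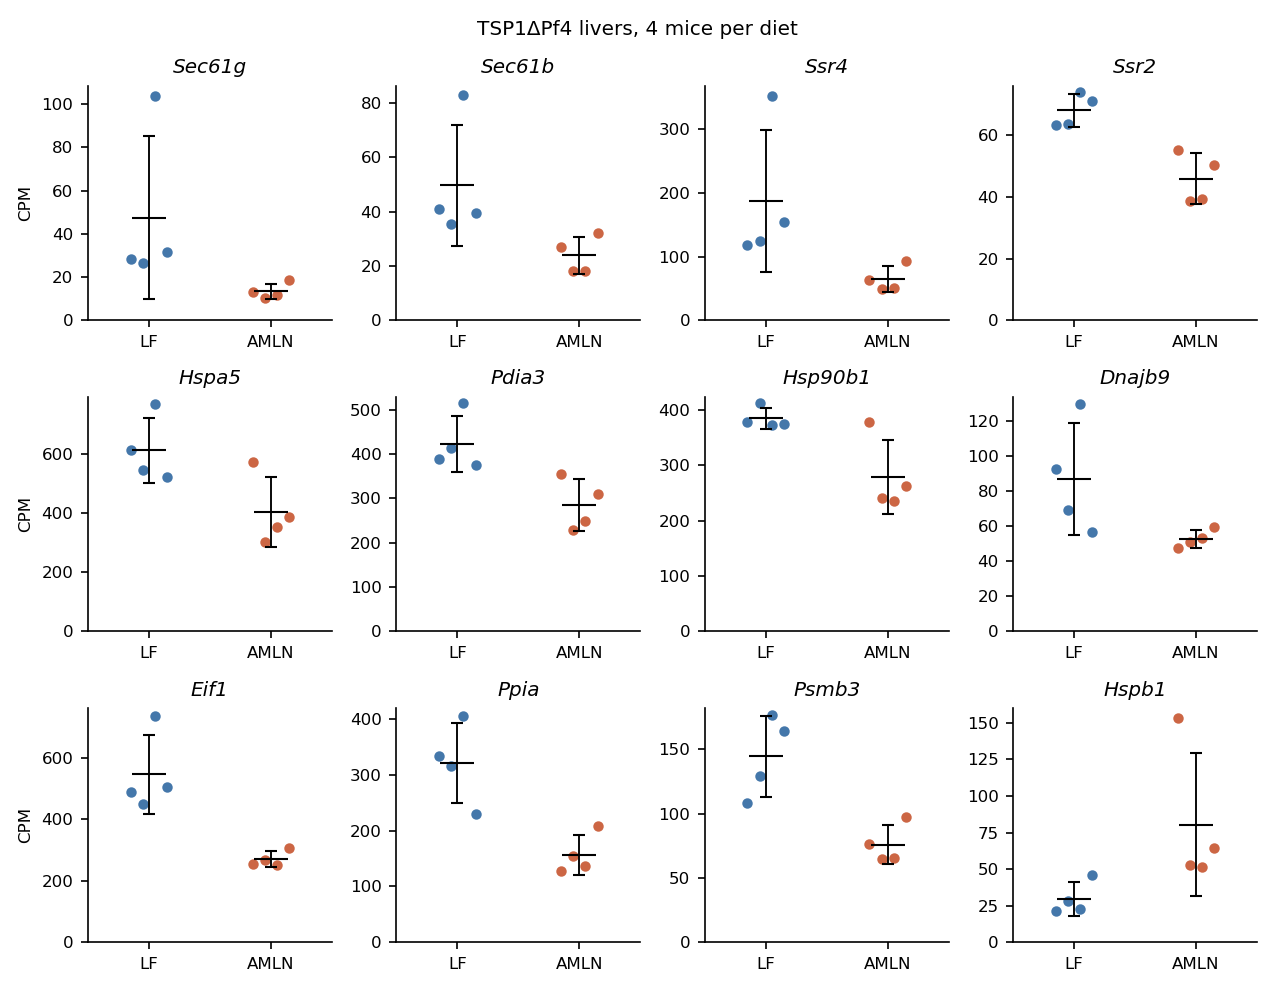
CPM (y axis, from 0) of 12 genes in TSP1ΔPf4 livers on the LF and AMLN diets. Points are mice in replicate order from left to right, and the bar with whiskers is the mean ± SD of 4 mice. LF replicate 3 is the highest LF point for Sec61g (104 CPM), Sec61b (82.9) and Ssr4 (353), and AMLN replicate 1 the highest for Hspb1 (153).

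Cytosolic chaperones went both ways. Hspb1 (ENSMUSG00000004951, chr5:135887919-135889563, forward strand), a small heat shock protein whose promoter holds 2 pairs of heat shock units, was higher on AMLN in both genotypes. In TSP1ΔPf4 it had 21.4, 28.6, 22.7 and 45.9 CPM in the LF-fed and 153, 52.96, 51.2 and 64.3 CPM in the AMLN-fed mice, without overlap and with a log2 fold change of 1.44 (standard error 0.38), or 0.92 without AMLN replicate 1. In TSP1F/F Hspb1 had 24.5, 22.4, 31.8 and 37.00 CPM in the LF-fed and 49.7, 43.1, 50.5 and 33.8 CPM in the AMLN-fed mice, which overlapped, with a log2 fold change of 0.62 (standard error 0.26), or 0.24 with DESeq2. The inducible Hsp70 gene Hspa1a (ENSMUSG00000091971, chr17:34969190-34972156, reverse strand) is listed for TSP1F/F at counts near the floor, 0, 0, 0 and 3 in LF-fed and 9, 14, 69 and 29 in AMLN-fed mice. It was at least 7.08-fold higher on AMLN, taking 3 counts per library as the floor, and this comparison, like the listing, rests on diet and carries no test. Hspa1a has a near-identical copy, Hspa1b, so its reads are uncertain. Fkbp1b and Dnajc6 are the other 2 genes too low for the fit, Fkbp1b with 2, 2, 0 and 3 counts in LF-fed and 36, 0, 24 and 47 in AMLN-fed TSP1F/F mice, and Dnajc6 with 45, 5, 3 and 2 in LF-fed and 0, 1, 0 and 4 in AMLN-fed TSP1ΔPf4 mice. Both overlapped, and LF replicate 1 held most counts of Dnajc6. In TSP1ΔPf4, 3 more genes named Hsp were higher (SD, n = 4 per group). Hsp90ab1, the constitutive cytosolic Hsp90, was at 691 ± 69.5 against 939 ± 153 CPM. Hspa4, an exchange factor for Hsp70, was at 73.5 ± 13.5 against 101 ± 14.2 CPM. Hspbap1, an Hspb1-associated protein that the name rule includes, was at 1.07 ± 0.332 against 2.43 ± 0.893 CPM, with 10 to 25 counts in the LF libraries. All 3 overlapped between the diets. Hspb8, another small heat shock gene, was lower in TSP1ΔPf4, at 232 ± 31.0 against 172 ± 36.6 CPM (SD, n = 4 per group), and overlapped too.

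Other cytosolic and mitochondrial folding genes were mostly lower, but the Fkbp genes split, with 1 of 3 listed lower in TSP1F/F and 2 of 3 in TSP1ΔPf4. Fkbp1a was higher in TSP1F/F, at 35.7 ± 2.64 against 52.2 ± 13.6 CPM (SD, n = 4 per group), and overlapped. Dnaja3, a mitochondrial Hsp40, had 83.2, 88.9, 101 and 88.9 CPM in the LF-fed and 58.8, 67.2, 55.3 and 63.2 CPM in the AMLN-fed mice in TSP1F/F, without overlap and with little spread (log2 fold change −0.57 (standard error 0.20)). Fkbp4, a prolyl isomerase that works with Hsp90 on steroid receptors, had 85.02, 91.4, 116 and 105 CPM in the LF-fed and 64.6, 78.9, 59.1 and 68.3 CPM in the AMLN-fed mice in TSP1F/F (log2 fold change −0.55 (standard error 0.22)), also without overlap. Its relative Fkbp5, which glucocorticoids induce, was higher in TSP1ΔPf4, at 25.96 ± 7.99 against 47.4 ± 22.4 CPM (SD, n = 4), and overlapped. The log2 fold change of Fkbp5 was 0.87, and 0.56 without AMLN replicate 3. Ppia, cyclophilin A, had 334, 316, 405 and 229.9 CPM in the LF-fed and 128, 154, 137 and 208 CPM in the AMLN-fed mice in TSP1ΔPf4. Its log2 fold change was −1.03 (standard error 0.24), and −0.90 without LF replicate 3. The diets did not overlap, although Ppia has processed pseudogenes that can share its reads. All 3 listed CCT subunits were lower, Cct3 and Cct7 in TSP1F/F and Cct5 in TSP1ΔPf4, with log2 fold changes of −0.72, −0.52 and −0.65, and all overlapped. Cct3 was at −0.42 and Cct5 at −0.36 without LF replicate 3. Of the DnaJ cochaperones 7 of 8 listings were lower, where 32.5% of all listed genes were in TSP1F/F and 55.8% in TSP1ΔPf4. The exception was Dnajc28 in TSP1ΔPf4, with 9.24, 7.63, 10.7 and 7.85 CPM in the LF-fed and 11.9, 12.1, 11.5 and 13.5 CPM in the AMLN-fed mice (log2 fold change 0.47 (standard error 0.21), no overlap). Dnajc12 was lower in both genotypes, with log2 fold changes of −1.43 (standard error 0.47) and −1.04 (standard error 0.36), and overlapped in both. Without LF replicate 3, which held its highest LF value in both, Dnajc12 was at −0.88 and −0.59.

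Proteasome genes were lower in all but 1 of 28 listings, the exception being Psmd1 in TSP1ΔPf4. Of all listed genes 32.5% were lower in TSP1F/F and 55.8% in TSP1ΔPf4. In TSP1ΔPf4, all 11 listed 20S genes were lower, with log2 fold changes from −0.47 (Psma1) to −1.14 (Psma7), apart from Psma8 at −2.29, a subunit known from testis that had at most 2.71 CPM here. Without LF replicate 3 Psma1 was at −0.26 and Psma7 at −0.68, and without LF replicate 2 Psma8 was at −1.46. Per length of gene, the median FPKM of the 10 others was 50.6, 57.9, 133 and 81.2 in the LF-fed mice and 41.3, 39.5, 31.0 and 58.2 in the AMLN-fed mice. AMLN replicate 4 lay above LF replicates 1 and 2, so this median overlapped between the diets. Psmb3, a structural beta subunit, was 1 of 3 20S genes without overlap, and had 108, 129, 176 and 164 CPM in the LF-fed and 76.4, 64.8, 65.9 and 97.3 CPM in the AMLN-fed mice (log2 fold change −0.93 (standard error 0.23), or −0.82 without LF replicate 3). In TSP1F/F the 20S genes Psmb2 and Psmb4 were lower, with log2 fold changes of −0.81 and −0.74, and both overlapped. That of Psmb4 was −0.35 without LF replicate 3. The 19S regulator recognises and unfolds ubiquitinated proteins. Of the genes named Psmc or Psmd, which include its subunits, 6 of 6 listed in TSP1F/F were lower, between −0.58 (Psmd9) and −0.93 (Psmc6). Psmd1 was the 1 that did not overlap. Psmc6 was at −0.50 without LF replicate 3. In TSP1ΔPf4, Psmd10 and Psmd13 were lower and Psmd1 higher.

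The PA28 activator genes Psme1 and Psme2, which interferon induces, were lower in TSP1ΔPf4. Psme1 had 121, 108, 162 and 136 CPM in the LF-fed and 80.7, 83.1, 73.05 and 99.99 CPM in the AMLN-fed mice, without overlap (log2 fold change −0.65 (standard error 0.21), or −0.30 with DESeq2). Psme2 had a log2 fold change of −0.62 (standard error 0.29), or −0.32 without LF replicate 3, a move of over 1.5 times. It overlapped, and its copy Psme2b, which can share its reads, did not (log2 fold change −0.89 (standard error 0.24)). The catalytic immunoproteasome subunits Psmb8, Psmb9 and Psmb10 are not listed in either table. The assembly chaperone genes Psmg1, Psmg3 and Psmg4 were all lower in TSP1ΔPf4. Psmg3 was the 1 of them without overlap, at 7.75, 10.2, 18.5 and 8.59 CPM in the LF-fed and 5.27, 6.04, 6.15 and 5.68 CPM in the AMLN-fed mice (log2 fold change −0.96 (standard error 0.30), or −0.61 without LF replicate 3). All 10 listed ubiquitin-conjugating E2 genes, which pass ubiquitin from the E1 enzyme to a ligase, were lower, 3 in TSP1F/F and 7 in TSP1ΔPf4. The shares over all listed genes were 32.5% and 55.8%. Ube2e2 in TSP1F/F had 20.4, 24.2, 32.4 and 25.7 CPM in the LF-fed and 17.3, 14.9, 18.2 and 18.7 CPM in the AMLN-fed mice (log2 fold change −0.57 (standard error 0.25)). Ube2g1, an E2 used in ER-associated degradation, had 57.9, 51.3, 66.9 and 48.97 CPM in the LF-fed and 38.2, 36.2, 32.8 and 48.4 CPM in the AMLN-fed mice (log2 fold change −0.53 (standard error 0.23)). Neither overlapped, though LF replicate 4 of Ube2g1 lay within 1 CPM of AMLN replicate 4.

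Initiation factors split. In TSP1ΔPf4, 11 of 15 listed Eif genes were lower and 4 higher, and in TSP1F/F 3 were lower and 2 higher. The shares of all listed genes that were lower were 55.8% and 32.5%. Eif1 (ENSMUSG00000035530, chr11:100319885-100322096, forward strand), which helps the small ribosomal subunit to pick the start codon, had the smallest p of all 93 genes. It had 490.3, 450.1, 738 and 507 CPM in the LF-fed and 255, 268, 252 and 307 CPM in the AMLN-fed mice, a log2 fold change of −1.01 (standard error 0.21) and an adjusted p of 0.0945 by edgeR (quasi-likelihood F test, Benjamini-Hochberg adjusted). All 4 LF values of Eif1 were above all 4 AMLN values, and without LF replicate 3 the log2 fold change was −0.83. Eif3, the scaffold that brings the small subunit to the mRNA, gave genes of both directions. Eif3i in TSP1ΔPf4 had 121, 127, 239 and 138 CPM in the LF-fed and 78.4, 69.7, 65.3 and 104 CPM in the AMLN-fed mice (log2 fold change −0.98 (standard error 0.27), or −0.70 without LF replicate 3). Eif3l, in the same mice, had 59.4, 66.6, 42.9 and 65.7 CPM in the LF-fed and 76.9, 75.2, 77.1 and 77.04 CPM in the AMLN-fed mice, a narrow AMLN group above every LF value (log2 fold change 0.38 (standard error 0.20)), of which 0.26 was left without LF replicate 3, its lowest LF value. In TSP1F/F, Eif3d, a cap-binding subunit, had 40.3, 46.5, 50.6 and 43.8 CPM in the LF-fed and 34.2, 34.6, 32.6 and 32.2 CPM in the AMLN-fed mice (log2 fold change −0.44 (standard error 0.21)), and Eif3a, the largest subunit, went the other way.

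Eif3a in TSP1F/F had 62.3, 42.4, 31.4 and 52.6 CPM in the LF-fed and 67.2, 72.3, 74.3 and 74.7 CPM in the AMLN-fed mice, without overlap and with a log2 fold change of 0.61 (standard error 0.25). Eif2b1, a subunit of the exchange factor that the integrated stress response inhibits, had 30.5, 29.6, 25.4 and 27.1 CPM in the LF-fed and 14.9, 23.1, 14.6 and 20.5 CPM in the AMLN-fed mice in TSP1F/F (log2 fold change −0.62 (standard error 0.25)), with no overlap. Eif4g1 and Eif4g3, the scaffolds of the cap complex, were both higher in TSP1ΔPf4, at 182 ± 44.4 against 309.6 ± 89.03 CPM and 17.00 ± 4.99 against 28.8 ± 7.05 CPM (SD, n = 4 per group), and overlapped through AMLN replicate 4. LF replicate 3 was the lowest LF mouse for both. Of 6 genes named Eef in TSP1ΔPf4, 5 were lower (55.8% of all listed genes were), among them Eef1akmt2, a methyltransferase that acts on elongation factor 1A. Eefsec, which inserts selenocysteine, was higher at 19.6 ± 4.23 against 30.4 ± 4.57 CPM (SD, n = 4), and overlapped. Eef1a1, which delivers tRNA to the ribosome, had the highest level per length of the 93 genes, 3958 ± 1219 FPKM on LF and 2409 ± 797 on AMLN (SD, n = 4), and overlapped. Its processed pseudogenes can share reads. Eif1 and Hsp90ab1 followed in FPKM on LF, at 260.4 ± 62.0 and 231 ± 23.2, and on AMLN their order was reversed, at 129 ± 12.1 and 313 ± 51.0.

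The tables share 8 of these genes, which allowed the genotypes to be compared. Each diet comparison uses its own mice, and since both listed these genes, the interaction, which is the difference of the 2 diet effects, is not independent of that selection. In 7 of the 8 the diet difference had the same sign in both genotypes, 5 lower (Hspa5, Pdia3, Psmb4, Dnajc12 and Eef1d) and 2 higher (Hspb1 and Eif4e3). Eif4e3, a cap-binding protein of the eIF4E family, had 2.35, 2.63, 2.702 and 4.32 CPM in the LF-fed and 6.29, 4.805, 7.597 and 9.37 CPM in the AMLN-fed mice in TSP1F/F (log2 fold change 1.22 (standard error 0.39), no overlap). In TSP1ΔPf4 it had 3.24, 4.11, 4.204 and 1.96 CPM in the LF-fed and 7.37, 9.005, 3.28 and 9.09 CPM in the AMLN-fed mice (log2 fold change 1.09 (standard error 0.37)), and AMLN replicate 3 lay within the LF range. The remaining gene was Psmd1, 1 of 8 (12.5%) with opposite signs, against 6.52% of the 752 genes listed in both tables.

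Psmd1 (ENSMUSG00000026229, chr1:86064387-86139151, forward strand) encodes the largest subunit of the base of the 19S regulator. In TSP1F/F livers it had 88.2, 66.3, 78.96 and 85.9 CPM in the LF-fed and 39.7, 50.2, 64.4 and 50.5 CPM in the AMLN-fed mice. In TSP1ΔPf4 livers Psmd1 had 60.1, 71.3, 40.7 and 71.6 CPM in the LF-fed and 96.6, 95.3, 91.5 and 78.7 CPM in the AMLN-fed mice. It was lower on AMLN in the first and higher in the second, without overlap in either. The log2 fold changes were −0.64 (standard error 0.23) and 0.57 (standard error 0.22), and each kept its sign without LF replicate 3, at −0.65 and 0.42. The difference between them, the interaction, was 1.21 (standard error 0.32). It is a description, since Psmd1 is singled out for its opposite signs, and it was 1.65 with TMM scaling and 1.55 with DESeq2. In AMLN-fed mice all 4 TSP1ΔPf4 values of Psmd1 were above all 4 TSP1F/F values, higher by 0.82 (standard error 0.25) on the log2 scale (adjusted p = 0.0636, same edgeR test), against a median of −0.38 over all genes in that comparison. TMM (1.11), DESeq2 (1.18), the fit of all 16 mice (0.82) and that without TSP1F/F AMLN replicate 3 (0.95) put Psmd1 past the threshold there, and the choice of Psmd1 by its opposite signs bears on this comparison too. In LF-fed mice the log2 fold change of Psmd1 was −0.39 (standard error 0.25).

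By edgeR (quasi-likelihood F test, Benjamini-Hochberg adjusted) 0 of 8 were called between the AMLN-fed genotypes (9% of all 733 tested were), with 2 of 8, Hspb1 and Psmd1, at an unadjusted p under 0.05 (25.2% of all). DESeq2 called the same 2 (9.96% of all). Hspb1 was higher in AMLN-fed TSP1ΔPf4 by 0.86 (standard error 0.37), adjusted p = 0.1598 by that edgeR test, where AMLN replicate 1 at 153 CPM lay far from the other 3 at 51.2 to 64.3. Without it the difference of Hspb1 was 0.34. Between the LF-fed genotypes 0 of 8 were called (0% of 640), 0 had an unadjusted p under 0.05 (6.88%) and DESeq2 called 0 (0.156%). In the interaction 0 of 8 were called (0.409% of 734), 1 of 8, Psmd1, had an unadjusted p under 0.05 (15%) and DESeq2 called that gene (5.99%). The interaction of Hspb1 was 0.82 (standard error 0.49), or 0.31 without TSP1ΔPf4 AMLN replicate 1, and the 6 others lay between −0.13 (Eif4e3) and 0.39 (Dnajc12), with standard errors of 0.35 to 0.63. The signs of 5 of these 6 changed with the scaling or with 1 mouse left out. At this precision no difference between the genotypes was detectable for these 6 genes.

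**Figure D4:**
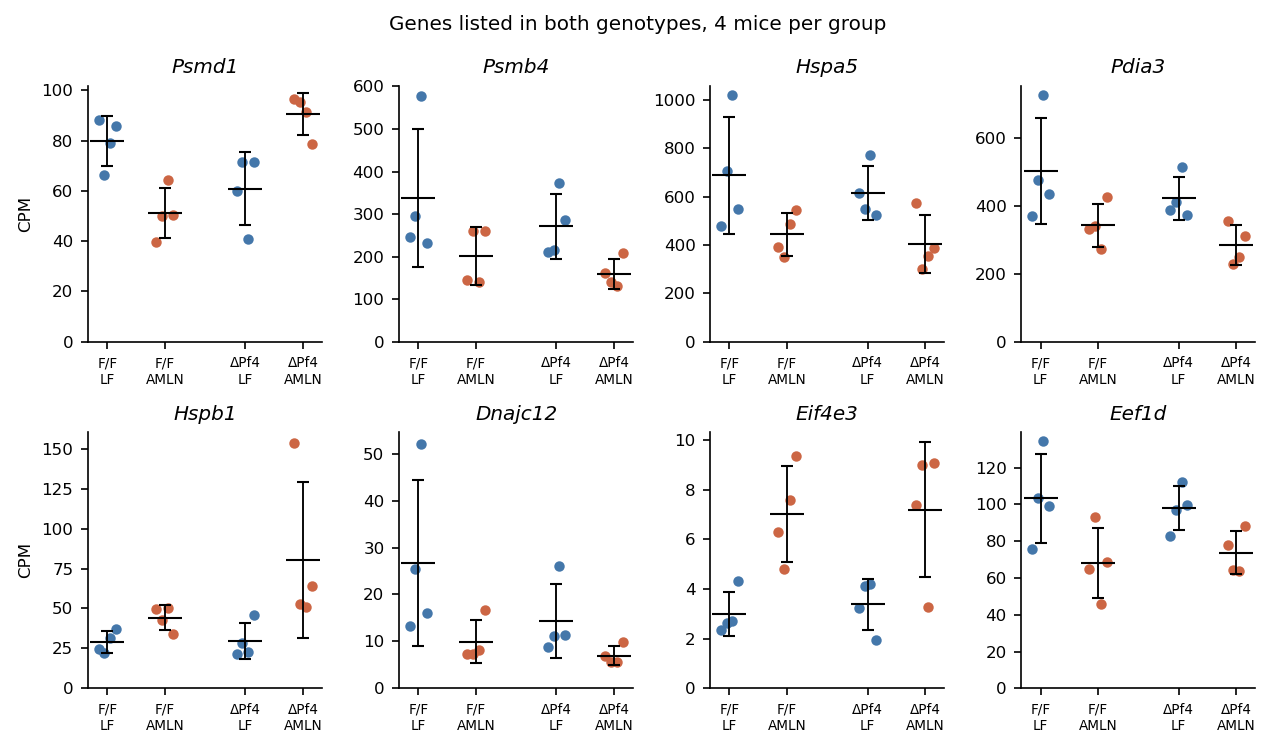
CPM (y axis, from 0) of the 8 genes listed for both genotypes in the 4 groups. Points are mice in replicate order from left to right, and the bar with whiskers is the mean ± SD of 4 mice. Psmd1 is lower on AMLN in TSP1F/F (51.2 ± 10.1 CPM against 79.8 ± 9.83) and higher in TSP1ΔPf4 (90.5 ± 8.19 against 60.9 ± 14.5), while the others keep their direction.

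Genes that work with these families were followed in 4 further lists. Their counts stand against 32.5% of all listed genes lower in TSP1F/F and 55.8% in TSP1ΔPf4. Of 59 genes of ER entry, folding and stress outside the name rule, 7 are listed in TSP1F/F, 4 lower, and 15 in TSP1ΔPf4, 13 lower. In TSP1ΔPf4 the lower ones included Srp9 and Srp14 of the signal recognition particle, the signal peptidase genes Spcs1, Spcs2, Spcs3, Sec11a and Sec11c, and Dad1 and Rpn1 of the oligosaccharyltransferase, with log2 fold changes from −0.42 (Dad1) to −1.05 (Srp9). The 2 higher ones were Nploc4 and Atf6, a sensor of ER stress, the latter at 0.55 (standard error 0.23). In TSP1F/F the lower genes were Srpr, Ddost, Rpn1 and Calr, and the higher ones were Chac1, Asns and Atf3, targets of the integrated stress response, at 2.95, 2.79 and 2.85 (standard errors 0.75, 1.16 and 1.05). Of 32 cytosolic chaperone partners 3 of 4 listed were lower in TSP1F/F and 5 of 7 in TSP1ΔPf4, where 4 were prefoldin subunits. Of 34 ubiquitin and proteasome partners, 2 of 3 and 4 of 8 were lower. Of 44 translation partners, 1 of 2 and 4 of 10 were lower, and Mtor was among the higher ones in TSP1ΔPf4 at 0.59 (standard error 0.23). In these 4 lists 0 genes were called for diet in either genotype.

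Markers of cell types moved with the diet as well. Of 20 hepatocyte markers, 8 are listed in TSP1F/F, all lower on AMLN, and 9 in TSP1ΔPf4, 8 lower. Their summed level was 16272 to 22835 CPM on LF and 7707 to 14246 on AMLN in TSP1F/F, and 34188 to 46835 and 18750.0 to 26127 in TSP1ΔPf4. Albumin itself is not listed in either table. Of 20 leukocyte markers, 16 are listed in TSP1F/F and 10 in TSP1ΔPf4, all higher, with sums of 86.9 to 495 against 606 to 2070.2 CPM and 121 to 165 against 299 to 429 CPM. Of 17 stellate cell and duct markers, 10 and 7 are listed, all higher, with sums of 59.7 to 109 against 166 to 459 CPM and 25.5 to 39.8 against 35.4 to 131 CPM. Timp1 had 0 counts in all LF-fed TSP1F/F mice. Interferon genes were lower in 3 of 12 and 2 of 9 listed and higher in the others. Red cell genes were lower in 0 of 2 and 1 of 1. Of all listed genes 32.5% were lower in TSP1F/F and 55.8% in TSP1ΔPf4. The summed level of the interferon genes in TSP1F/F was 438 to 767 CPM on LF and 318 to 546 on AMLN. Iigp1, 1 of the 3 lower ones there, held most of that sum, with means of 428 CPM on LF and 241 on AMLN. In TSP1ΔPf4, where Iigp1 is not listed, the sum was 58.9 to 73.6 CPM on LF and 69.8 to 125 on AMLN. The part of these cell types in the lower folding, proteasome and translation genes was not tested.

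Gene length also went with direction, for these genes in opposite ways in the 2 genotypes. Over all listed genes the lower ones had the shorter median in both. In TSP1ΔPf4 the 59 lower genes had a median deposited length of 2532 bases and the 12 higher genes 4583.5, where all listed genes had 2058 and 4964. In TSP1F/F the 24 lower genes had 4343 and the 6 higher genes 2741, where all listed genes had 2929.5 and 4151.5. The part of length in the fold changes was not tested.

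**Figure D5:**
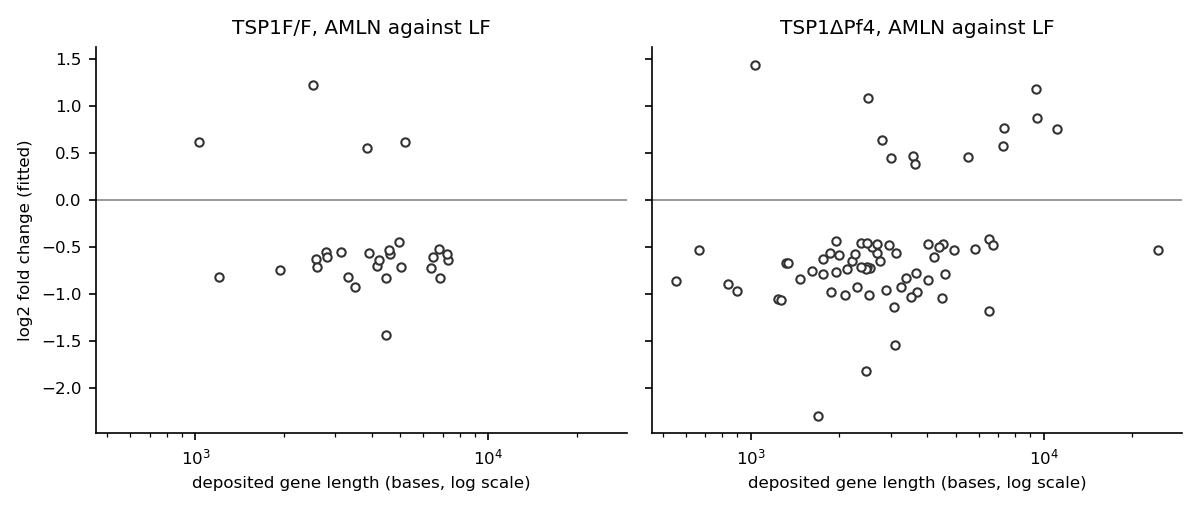
Fitted log2 fold change of AMLN against LF (y axis) by deposited gene length in bases (x axis, log scale) for the 28 genes tested in TSP1F/F (left) and the 70 in TSP1ΔPf4 (right). Each point is a gene. In TSP1ΔPf4 the shortest gene, of 555 bases, lies below 0, and the shortest above 0 is Hspb1 (1031 bases, at 1.44).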

How the data were processed

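RNA of 16 livers was sequenced by the authors as paired reads of 150 bases. The paper names STAR and the submitters' processing notes name HISAT2 as aligner, both to mm10. The counter, annotation release and strand setting are not given in the sources used here. The deposited counts are reads per gene. The deposited signal values are those counts divided by a size factor per library. The deposited FPKM were made by the authors from counts, gene length and a library total. The authors' p-values, from DESeq2, served only to see that every listed gene is under 0.05, and their fold changes were not used. All 48 columns of single mice were matched and 0 were left unmatched.

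Genes and lists were chosen with earlier results of these data known. Library totals were rebuilt from counts, lengths and FPKM, with a median of 21485267, and counts scaled to them as CPM. Their number limits the precision of low genes. Genes passing filterByExpr were tested with edgeR 4.0.16 (limma 3.58.1, R 4.3.3; quasi-likelihood F test), and called at an adjusted p under 0.05 with a log2 fold change beyond 0.25 in either direction. Benjamini-Hochberg adjustment for diet counted 21951 protein-coding genes of GENCODE M21, genes outside the tables taken as not called, and for genotype and the interaction the genes tested of the 752 in both tables. Fold changes are AMLN against LF, or TSP1ΔPf4 against TSP1F/F. Standard errors were derived from the F statistic. The shared spread was estimated on selected genes, and replicates are separate mice. Positions equal GENCODE M21 for 29 of 30 and 67 of 71 genes. The named genes were those called, up to 8 rises and 8 falls per diet comparison without overlap, those opposite between genotypes, and listed core stress genes, and any other was named after its values were seen. Genes the filter removed are given as counts. Tests were checked on simulated data. Alternatives were TMM, DESeq2 1.42.0, no filter, no fold threshold, a replicate block, all mice in 1 fit, adjustment over listed genes, each mouse left out and, chosen after seeing the data, the authors' size factors and overlap without LF replicate 3.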

Additional observations from a re-analysis of the deposited data

Results flagged for a closer look

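In 10 of 76 groups of 4 mice, for the genes named by rule, 1 mouse lay far from the other 3 by Dixon's criterion, where chance gives about 1 in 20. TSP1ΔPf4 LF replicate 3 was that mouse for Sec61g (104 CPM), Sec61b (82.9), Ssr4 (353), Eif3i (239) and Dnajc12 (26.2), each time as the highest. The others were Hsp90b1 in TSP1ΔPf4 LF replicate 2 (414 CPM), Hspb1 in TSP1ΔPf4 AMLN replicate 1 (153), Eif3l in TSP1ΔPf4 AMLN replicate 2 (75.2, the lowest of its group), Dnajc12 in TSP1F/F AMLN replicate 4 (16.8) and Hspa1a in TSP1F/F LF replicate 4 (0.113, which is 3 counts against 0 in the other 3).

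The diet difference of Psmd1 had opposite signs in the genotypes, with an interaction of 1.21 on the log2 scale (standard error 0.32). The gene is singled out for these opposite signs and was listed for a diet difference in each genotype, so the value restates that choice and the difference was not tested independently of it. The interaction lay between 1.06 and 1.34 with each of the 16 mice left out in turn.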

How the results depend on the processing

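Of 1666 recomputed values of the genes tested, 53 in 14 results changed sign, all in the genotype comparisons or the interaction of the 8 shared genes, and 34 passed a threshold missed in the fit reported, 29 of them with DESeq2. No diet value changed sign, which the selection of these genes by diet in the same mice favours. The number of genes lower on AMLN was 24 of those tested in TSP1F/F and 58 or 59 in TSP1ΔPf4 under every alternative. The number called for diet was 10 in TSP1F/F and 16 in TSP1ΔPf4 with DESeq2, 7 and 47 when adjusted over the listed genes only, which counts fewer genes, and 0 with TMM, with the authors' size factors (chosen after seeing the data), with the replicate block and in all fits that left out 1 mouse. The numbers of genes without overlap were also unchanged without LF replicate 3, which is close to fixed for lower genes because that library is mostly the highest LF value, while the shares over all listed genes became 14.7% lower and 37.8% higher in TSP1F/F and 28.5% and 23.5% in TSP1ΔPf4.

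Between the AMLN-fed genotypes, 1 gene, Psmd1, was called with TMM, with the replicate block (0.84), with all 16 mice in 1 fit and without TSP1F/F AMLN replicate 3, and 2 with DESeq2. Leaving out 1 mouse gave 0 to 1. Of the 8 genes 4 were lower, 2 with TMM and 1 with DESeq2. Between the LF-fed genotypes 6 of 8 were lower, and 3 to 7 with 1 mouse left out, 3 without TSP1F/F LF replicate 3. In the interaction 1 gene, Psmd1, was called with TMM and with DESeq2. There 3 of 8 were negative, 0 with TMM or DESeq2, 1 with the authors' size factors, and 0 to 5 with 1 mouse left out, 5 without TSP1F/F LF replicate 3. The block changed no other call.

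The interactions that turned were those of Eif4e3 (TMM 0.29, DESeq2 0.22, and −0.37 to 0.11 with 1 mouse left out), Pdia3 (TMM 0.38, DESeq2 0.29, authors' size factors 0.0018, 1 mouse left out −0.25 to 0.11), Psmb4 (TMM 0.37, DESeq2 0.26, authors' size factors 0.0014, 1 mouse left out −0.41 to 0.17), Hspa5 (1 mouse left out −0.22 to 0.17) and Dnajc12 (1 mouse left out −0.16 to 0.85). Between the AMLN-fed genotypes Eif4e3 turned with the replicate block (−0.023), the authors' size factors (−0.0078) and 1 mouse left out (−0.11 to 0.28), Hspa5 with TMM (0.16) and DESeq2 (0.23), Pdia3 with TMM (0.021) and DESeq2 (0.075), Psmb4 with DESeq2 (0.0013) and Eef1d with 1 mouse left out (−0.036 to 0.30). Between the LF-fed genotypes Hspb1 turned with the replicate block (−0.00090) and the authors' size factors (−0.018). With 1 mouse left out Hspb1 ran from −0.25 to 0.18, Eef1d from −0.20 to 0.077, Hspa5 from −0.31 to 0.087 and Psmb4 from −0.51 to 0.077. The cause was not tested, and no direction is read from these differences.

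Mice of the same number did not deviate together in every pair (correlations from −0.50 to 0.50), so the numbers were not taken as pairs. At an unadjusted p under 0.05, 15 genes were lower in TSP1F/F, 24 with TMM or DESeq2, 3 with the block, 2 without AMLN replicate 1, 4 without AMLN replicate 3, 5 without LF replicate 3 and 6 without LF replicate 2. In TSP1ΔPf4 48 were lower, 20 with TMM, 23 with DESeq2, 32 with the block, and 29 without AMLN replicate 2 or without AMLN replicate 3. The deposited tables hold only genes selected for a diet difference, which limits what these counts show.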
